A study of Mus musculus with 6 samples.

Results

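Lipases free fatty acids from stored, circulating or swallowed fat, and the lactating mammary gland takes up much of the fat it secretes through one of them, lipoprotein lipase. The genes described here are a family of 7 chosen by name: the lipases Cel, Lipg, Lipa, Mgll and Lpl, and the lipoprotein lipase partners Gpihbp1 and Angptl4. All 16 probe sets that carried one of these symbols alone were used, out of 34945 probe sets with a single gene symbol, and they stand for 7 of 18193 named genes. Every member was tested, among 11495 genes bright enough to test, and 12 of the 16 probe sets lay above the same threshold, a mean log2 value of 7.715 or a signal of about 158.1. Lipg passed it only through the lactating arrays, where it was bright.

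Lipoprotein lipase (Lpl) is made by fat, muscle and secretory mammary cells and splits the triglycerides of circulating lipoproteins at the capillary wall. Gpihbp1 is the endothelial protein that carries it to the lumen and holds it there, and Angptl4 is a secreted protein that inactivates it. Lipg, endothelial lipase, acts mainly on the phospholipids of lipoproteins. Lipa is the lysosomal acid lipase, which breaks down cholesteryl esters and triglycerides taken into the lysosome. Mgll, monoglyceride lipase, completes the breakdown of stored triglyceride in fat cells and also degrades an endocannabinoid. Cel, carboxyl ester lipase or bile salt-stimulated lipase, is a digestive enzyme of the pancreas that some mammals also secrete in milk.

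Total RNA of whole mammary glands from 6 female mice of a mixed 129/FVB/Black Swiss background had been hybridised to arrays, 1 mouse each, to search for genes regulated by Brca1. The virgin pair, aged 6 months, and the lactating pair, aged 2 months and taken on day 1 of lactation, each held a Brca1 D11/D11;p53+/- mutant and a Brca1 D+/+;p53+/- control. In the pregnant pair, aged 5 months and at day 16.5, the mutant was Brca1 co/co with MMTV-Cre and the control was Brca1 +/co with MMTV-Cre, so this control too carried the Cre gene and 1 conditional allele. MMTV-Cre is active in mammary epithelium but not in it alone, so in whole glands the deletion need not reach every cell. The text on the whole series describes all mutants as D11/D11;p53+/-, and the sample labels were followed. Age, alleles and, for the lactating pair, the array date in the labels go with stage, so differences between stages cannot be told apart from them. The mice are separate animals, but each group is a single mouse, and stages were compared over 2 mice each.

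In the GRCm38.p6 assembly Cel is at chr2:28555819-28563403, Mgll at chr6:88724412-88828360, Lpl at chr8:68880555-68906932, Gpihbp1 at chr15:75596630-75598213, Angptl4 at chr17:33774900-33781575 and Lipa at chr19:34492316-34527474. Promoter sequence from RefSeq is shown for 3 of the members that changed between stages, Cel, Mgll and Lipa, which moved in different directions or by different amounts. That of Lipg, which changed too, is not shown. For Mgll the window of its outermost start was used. Each run is the 250 bases before the annotated transcript start, 5′ to 3′ on the gene's own strand, with capitals marking a match to a searched motif. The windows are chr2:28563404-28563653 (minus strand), chr6:88724162-88724411 (plus strand) and chr19:34527475-34527724 (minus strand).
Cel: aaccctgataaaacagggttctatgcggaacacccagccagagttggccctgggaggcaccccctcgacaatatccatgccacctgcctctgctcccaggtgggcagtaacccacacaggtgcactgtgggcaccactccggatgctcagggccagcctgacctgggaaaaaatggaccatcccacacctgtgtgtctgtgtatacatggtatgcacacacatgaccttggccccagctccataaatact
Mgll: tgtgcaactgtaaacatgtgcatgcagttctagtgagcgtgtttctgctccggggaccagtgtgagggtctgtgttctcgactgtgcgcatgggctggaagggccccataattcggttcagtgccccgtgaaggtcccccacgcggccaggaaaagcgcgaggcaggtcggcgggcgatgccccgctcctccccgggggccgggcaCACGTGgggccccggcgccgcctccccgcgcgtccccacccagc
Lipa: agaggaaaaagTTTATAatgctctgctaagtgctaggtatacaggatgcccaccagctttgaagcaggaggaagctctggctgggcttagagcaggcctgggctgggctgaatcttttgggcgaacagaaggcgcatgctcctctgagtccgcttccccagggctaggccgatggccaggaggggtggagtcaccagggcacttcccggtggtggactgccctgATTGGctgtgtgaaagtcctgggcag
Both strands were searched for 6 motifs. Those of general promoters were the box TATAAA, the box read as CCAAT by the factor NF-Y, and the GC box, whose letters are GGGCGG. The others were CACGTG, a palindromic E-box, then TTCNNNGAA, the core that Stat factors such as Stat5 bind, and a direct repeat that PPAR and RXR bind, made of 2 copies of AGGTCA with 1 base between them. N stands for any base, and no motif lies within another. The Cel window held none of them. The Mgll window held CACGTG at positions -44 to -39 from the start, a motif found in 6.02% of 32851 promoter windows of this length. The Lipa window held the reverse complement of the TATA box, TTTATA, at -239 to -234 and that of the CCAAT box, ATTGG, at -26 to -22. These motifs occurred in 12.4% and 33.8% of windows. The other shares were 32.7% for the GC box, 7.02% for the Stat core and 0.0335% for the direct repeat. The 3 windows differed in base composition: Mgll had 68.0% G and C with 23 CpG pairs, Lipa 58.0% with 5 and Cel 56.4% with 3, beside medians of 52.4% and 6 over all windows. A match is a description of letters and does not show binding.

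Values are MAS5 signal intensities. Ratios are on the log2(signal + 52.1) scale, which understates changes of dim genes, and carry the standard error (SE) of a limma fit. Each comparison of stages rests on 2 arrays against 2, and a change was called at a limma adjusted p under 0.05 over all tested genes. All arrays had a trimmed mean of 500 as deposited. Median signals were 119.9 to 157.8 on the virgin and pregnant arrays and 211.2 and 230.8 on the lactating ones. In these females 20 probe sets of Y-linked genes gave a background: its 95th percentile lay between 97.6 and 134 on the virgin and pregnant arrays and at 282.9 and 450.3 on the lactating arrays. The ratio of 3′ to 5′ Gapdh signal, a sign of RNA quality, was 3.5 in the virgin control and 0.73 to 1.52 elsewhere. In whole glands, fewer cells of a type and less RNA per cell cannot be told apart.

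Between virgin and lactating glands Cel and Lipa were higher, Mgll was lower, and Lpl, Gpihbp1 and Angptl4 did not pass the test. Lipg was bright in lactating glands alone and is counted apart, since it was tested only because of those arrays. Of the other 6 genes 2 were higher and 1 lower, while across all genes 52% were called in this comparison, 23.7% higher and 28.3% lower, so the count is near the background. The sizes of the changes ranged from 41.1-fold for Cel to 2.4-fold for Mgll. The median log2 ratio of the 6 was 0.42, beside -0.10 over all tested genes. From virgin to pregnant glands 2 of the 6 were higher and 1 lower, against 14.7% of all genes called (6.45% higher, 8.26% lower). From pregnant to lactating glands 3 were higher and 1 lower, against 31.7% (14.9% higher, 16.8% lower). The medians in these comparisons were 0.09 and 0.56 for the 6 and -0.06 and -0.04 for all genes. Since the comparisons share arrays, their calls are not separate evidence. By signal alone, 3 of the 6 in pregnant glands lay above both virgin glands and 2 below both, as did 27.6% and 37% of all tested genes. In lactating glands 4 lay above and 1 below both pregnant glands (33.4% and 36.4% of all), and 3 above and 1 below both virgin glands (35.1% and 41.8%).

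**Figure D1:**
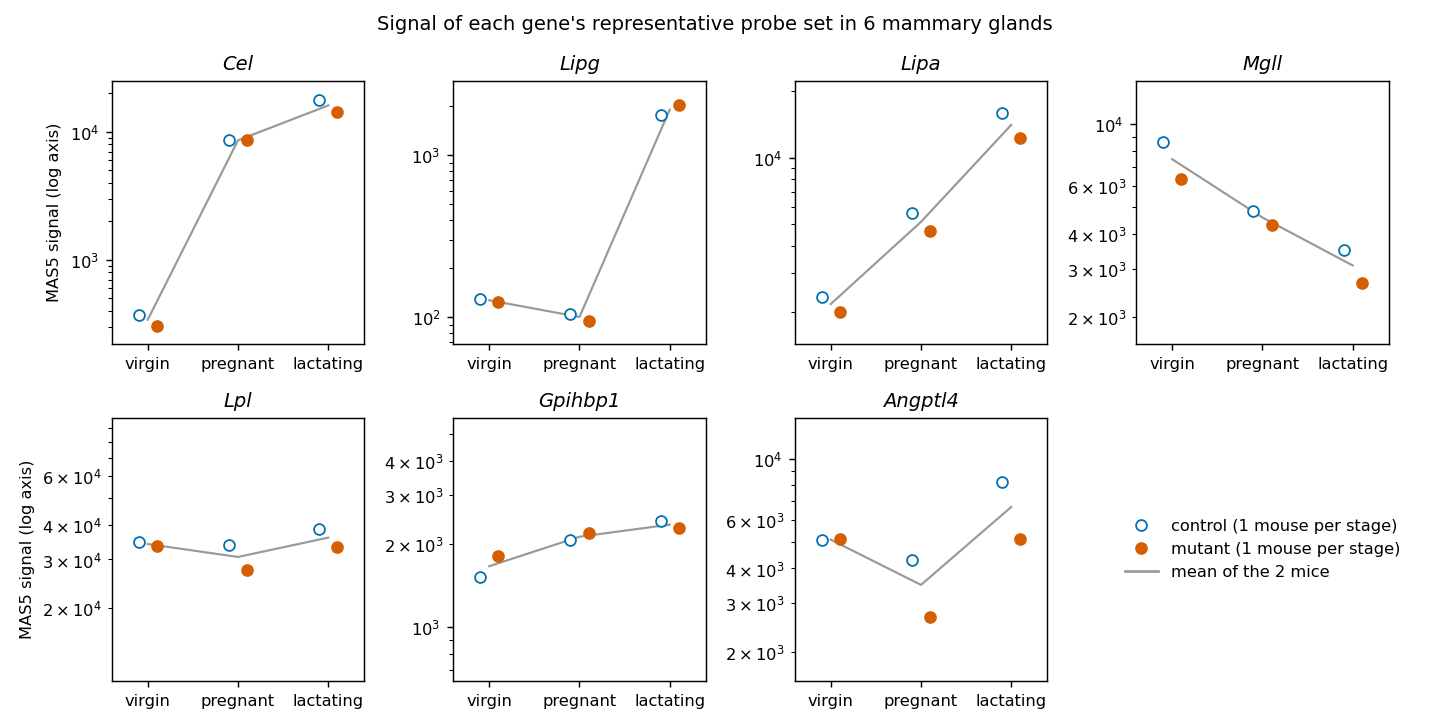
MAS5 signal (log axis) of the probe set that represents each gene, by stage. Open points are controls, filled points mutants (1 mouse each), and the grey line joins the means of the 2 mice. Cel, Lipg and Lipa are highest in both lactating glands, Mgll is lowest there, and Lpl lies between 27542 and 38702 in all 6.

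Cel showed the widest range of the 7. Its single probe set read 374 (control) and 307 (mutant) in virgin glands, 8619 and 8576 in pregnant glands, and 17849 and 14359 in lactating glands, with the control first at each stage. The 3 stages did not overlap, and the step from virgin to pregnant was the larger of the steps. The log2 ratio was 4.47 ± 0.19 (SE) for pregnant against virgin (limma adjusted p = 0.0001208), or 22.1-fold. Lactating exceeded pregnant by 0.89 ± 0.19 (limma adjusted p = 0.01313), or 1.86-fold. With array medians centred this later step was 0.48 (limma adjusted p = 0.1284), and it also lost its call without the pregnant control (0.76, adjusted p = 0.1174) or the pregnant mutant (1.03, adjusted p = 0.05721). Lactating against virgin gave 5.36 ± 0.19 (limma adjusted p = 1.786e-05).

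Because Cel is known as a pancreatic enzyme, markers of pancreatic acinar cells were read on the same arrays. The summed signal of 9 such genes was 740 to 1107 in virgin, 863 to 1027 in pregnant and 1274 to 2258 in lactating glands. Only 2 of the 9 were bright enough to test, Prss2 (96.4 to 606.3) and Cela1 (259.4 to 661.6), and neither passed the test in any comparison. The pancreatic transcripts Cpa1 and Cpb1 read at most 31.5 and 28.7 on any array. Both were under the 95th percentile of the Y-linked probe sets on all arrays. Cela2a and Rbpjl read at most 142.2 and 112.8. Clps, also under that percentile throughout, was higher at each later stage. It read 9.6 and 24.2 in virgin and 227 and 264.9 in lactating glands (control, then mutant). Ctrb1 read 581.8 in the lactating control, above that percentile, and 45.2 to 120.9 elsewhere. Its 120.9 in the virgin mutant was about at that array's percentile (120.4). Ptf1a read 64.8 to 439.6, highest in the lactating control. Prss2 was highest on that array too, at 606.3 beside 96.4 in the lactating mutant. The part of pancreatic transcripts in the Cel signal was not tested. Markers of the milk-secreting epithelium rose too: their summed signal over 10 genes was 132786 to 170599 in virgin, 299226 to 408761 in pregnant and 434907 to 466305 in lactating glands. From pregnant to lactating glands 3 of the 10 were higher and 7 not called, with a median log2 ratio of 0.16. In lactating against virgin glands 7 of these 10 were higher and none lower, with a median of 2.02. Wap, a milk protein, was far above that median (6.18 ± 0.36, SE). Csn2, a casein, read 30621 and 40000 in virgin and 38162 and 40461 in lactating glands (control, then mutant). Skeletal muscle markers were higher too, 10 of 12 in the same comparison and 12 of 12 in pregnant against virgin glands. Their part in the change of Cel was not tested.

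Lipg, endothelial lipase (chr18:74939322-74961263 in GRCm38.p6), changed at lactation. The brightest of its 3 probe sets read 129.8 and 125.0 in virgin glands (control, then mutant), 105.5 and 95.5 in pregnant glands, and 1772 and 2049 in lactating glands. Both lactating glands stood far above the other 4, which lay close together near the background. Both pregnant arrays were below the 95th percentile of their Y-linked probe sets. With the pregnant signals raised to it, lactating exceeded pregnant glands 10.8-fold at the deposited scaling, a log2 ratio of 3.44. The measured log2 ratio was 3.68 ± 0.24 (SE), and 3.27 with array medians centred. The 10.8-fold value makes no allowance for the brighter background of the lactating arrays, so it is not a lower limit at other scalings. Lactating against virgin gave 3.45 ± 0.24, or 10.9-fold between the measured means, with both virgin signals close to background. Because Lipg passed the filter on its lactating signals, its test is taken from the fit of all 18193 named genes with no filter: the limma adjusted p was 0.001583 against pregnant and 0.0002794 against virgin glands (0.000774 and 0.0001171 with the filter). Pregnant against virgin gave -0.23 ± 0.24 (limma adjusted p = 0.6746 with no filter). The background itself was brighter on the lactating arrays, as given above, and the Lipg signals there were above its 95th percentile on each array. The other 2 probe sets of Lipg stayed below that percentile on all 6 arrays. In lactating glands they read 156.9 and 138.9, and 15.5 and 14.3 (control, then mutant). The rise therefore rests on 1 of the 3 probe sets.

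Endothelial markers did not follow the pattern of Lipg. The summed signal of 14 capillary and other endothelial genes was 14077 to 14688 in virgin, 7362 to 8177 in pregnant and 5800 to 6602 in lactating glands. From virgin to pregnant glands, where Lipg was not called, 6 of the 14 were lower and none higher. From pregnant to lactating glands, where Lipg rose, 6 were lower, 1 was higher (Cldn5, a tight junction protein, 0.78 ± 0.23, SE) and 7 were not called, with a median log2 ratio of -0.60. In lactating against virgin glands 11 were lower and none was higher, with a median of -1.43. Pecam1, an adhesion protein of endothelial junctions, was lower there by a log2 ratio of -1.54 ± 0.20.

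Lipa rose at both steps and on all 3 of its probe sets. The brightest read 2349 and 2007 in virgin glands (control, then mutant), 5605 and 4644 in pregnant glands, and 15860 and 12271 in lactating glands. The second read 1114, 1033, 2469, 1926, 9754 and 6595 in the same order, and the third read 306.5, 319.2, 3112, 2141, 6301 and 3729. On each probe set the 3 stages did not overlap. The gene's log2 ratio was 1.21 ± 0.18 (SE) for pregnant against virgin (limma adjusted p = 0.007061), 1.44 ± 0.18 for lactating against pregnant (limma adjusted p = 0.003358) and 2.65 ± 0.18, or 6.3-fold, for lactating against virgin (limma adjusted p = 0.0001066). The first step was not called without the virgin control (1.16, limma adjusted p = 0.07349) or without the pregnant control (1.23, limma adjusted p = 0.05776).

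The probe sets of Lipa differed in where the rise fell. In a fit over all 19481 named probe sets above the threshold, the log2 ratio of pregnant to virgin was 1.21, 0.99 and 2.85, and that of lactating to pregnant was 1.44, 1.85 and 0.90, each of the 6 called. In that fit 15.2% and 32% of probe sets were called in these comparisons.

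Lipa rose while most other lysosomal genes did not. Of 26 tested lysosomal hydrolases and membrane proteins, 2 were higher and 6 lower in lactating against virgin glands, and 18 did not pass the test, against 23.7% higher and 28.3% lower over all genes. The median log2 ratio of this list was -0.05. The 4 with the smallest p were all lower: Hexa, a subunit of beta-hexosaminidase (-2.90 ± 0.20, SE), the cathepsins Ctss (-2.29 ± 0.23) and Ctsz (-2.30 ± 0.33), and Atp6v1h, a subunit of the proton pump that acidifies lysosomes (-1.25 ± 0.24). Macrophages are rich in several of these, and their part in the lower values was not tested. The summed signal of 12 macrophage markers was 38438 to 42874 in virgin, 26792 to 31493 in pregnant and 17568 to 22890 in lactating glands, with 8 of 12 lower and 1 higher (Cd14) in lactating against virgin.

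**Figure D2:**
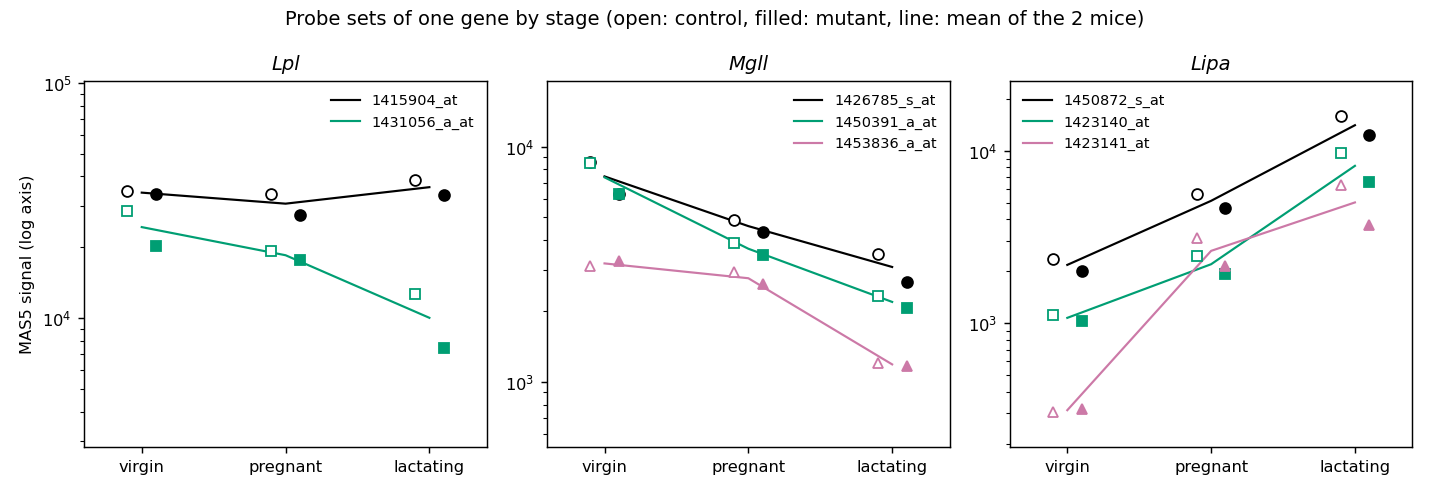
MAS5 signal (log axis) by stage for each probe set above the threshold of Lipa, Mgll and Lpl. Open points are controls, filled points mutants (1 mouse each), and lines join the means of the 2 mice. All 3 Lipa sets rise and all 3 Mgll sets fall toward lactation, while the 2 Lpl sets part: one stays level and the other falls.

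Mgll was the only member that was lower in lactating than in virgin glands by its representative probe set. This set read 8624 and 6319 in virgin glands (control, then mutant), 4865 and 4318 in pregnant glands, and 3500 and 2655 in lactating glands. The stages followed one another downward without overlap. Lactating against virgin gave a log2 ratio of -1.26 ± 0.19 (SE; limma adjusted p = 0.001402), or 2.4-fold lower. Its 2 other bright probe sets gave -1.72 and -1.39 in the probe set fit, both called, where 52.1% of probe sets were.

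The single steps of Mgll were close to the threshold. Pregnant against virgin gave -0.68 ± 0.19 (limma adjusted p = 0.04848) and lactating against pregnant -0.58 ± 0.19 (limma adjusted p = 0.04877). The first lost its call in 10 of 18 alternative settings and the second in 13 of 17. Where all arrays were kept, the lost calls of the first step had limma adjusted p from 0.05193 (lower pseudocount) to 0.2851 (mean of probe sets). The probe sets also differed in the first step: 2 were called lower, at -0.68 and -0.98, and the third gave -0.21 ± 0.19 (limma adjusted p = 0.5039).

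Fat cell markers fell over the same stages. The summed signal of 10 adipocyte genes was 134487 to 140820 in virgin, 91425 to 109335 in pregnant and 73802 to 85527 in lactating glands. Of 9 tested, 6 were lower and 1 higher in lactating against virgin, with a median log2 ratio of -2.38. Adipoq, the adipocyte hormone adiponectin, gave -2.38 ± 0.23 (SE), and the exception was Cidea, a lipid droplet protein that mammary epithelium also makes (3.71 ± 0.18). Lipe, hormone-sensitive lipase, which acts just before Mgll in the same pathway, gave -0.12 ± 0.22 (limma adjusted p = 0.6722). Whether the fall of Mgll goes with the share of fat cells was not tested.

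Lpl was bright in all 6 glands, and its 2 probe sets gave different answers. The brighter read 34611 and 33648 in virgin glands (control, then mutant), 33724 and 27542 in pregnant glands, and 38702 and 33304 in lactating glands. These stages overlapped, and no stage comparison passed the test: the log2 ratios were -0.16 ± 0.20 (SE) for pregnant against virgin (limma adjusted p = 0.6282), 0.24 ± 0.20 for lactating against pregnant (limma adjusted p = 0.3986) and 0.07 ± 0.20 for lactating against virgin (limma adjusted p = 0.7805). The 95% interval of the last ran from -0.40 to 0.55. Its signals were near the top of each array's range, whose highest signals were 44905 to 63891, and saturation was not checked here.

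The second Lpl probe set read 28494 and 20209 in virgin glands (control, then mutant), 19265 and 17707 in pregnant glands, and 12590 and 7441 in lactating glands. It was lower at each later stage, without overlap. Its log2 ratio for lactating against virgin was -1.31 ± 0.21 (SE; limma adjusted p = 0.001814 over all probe sets) and for lactating against pregnant -0.93 ± 0.21 (limma adjusted p = 0.0154). Pregnant against virgin gave -0.38 ± 0.21 on this set (limma adjusted p = 0.2662). With the mean of both sets in place of the brighter, Lpl was called lower in lactating against virgin glands (-0.62, limma adjusted p = 0.0383). No direction is therefore given for Lpl. Where the probes of the 2 sets lie along the transcript was not examined.

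Gpihbp1, the capillary carrier of Lpl, passed no stage comparison. It read 1513 and 1811 in virgin glands (control, then mutant), 2060 and 2191 in pregnant glands, and 2420 and 2283 in lactating glands. The stages did not overlap, but the log2 ratio of lactating to virgin, 0.49 ± 0.19 (SE), missed the threshold (limma adjusted p = 0.06154). It was called under quantile normalization (0.69, limma adjusted p = 0.02143) and turned to -0.10 with array medians centred. Pregnant against virgin gave 0.35 ± 0.19 (limma adjusted p = 0.252), and lactating against pregnant gave 0.14 ± 0.19 (limma adjusted p = 0.5917). Gpihbp1 is made by capillary cells, whose markers fell over these stages as given above. Signals of 12 skeletal muscle genes varied too, summing to 16359 to 45992 in virgin, 183816 to 212018 in pregnant and 97860 to 104336 in lactating glands, and their part in the values of Lpl and Gpihbp1 was not tested.

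Angptl4 was lowest in the pregnant glands. Its bright probe set read 5054 and 5124 in virgin glands (control, then mutant), 4310 and 2668 in pregnant glands, and 8261 and 5112 in lactating glands. The lactating mutant lay within the range of the virgin glands. Lactating against pregnant gave a log2 ratio of 0.93 ± 0.23 (SE; limma adjusted p = 0.02236), or 1.9-fold. That call was lost in 5 of 16 alternatives, among them centring on array medians (0.51, limma adjusted p = 0.1311) and leaving out the pregnant mutant (0.75, limma adjusted p = 0.1504), the pregnant control (1.10, limma adjusted p = 0.059) or the lactating control (0.75, limma adjusted p = 0.08802). Pregnant against virgin gave -0.58 ± 0.23 (limma adjusted p = 0.1356) and lactating against virgin 0.35 ± 0.23 (limma adjusted p = 0.2365).

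**Figure D3:**
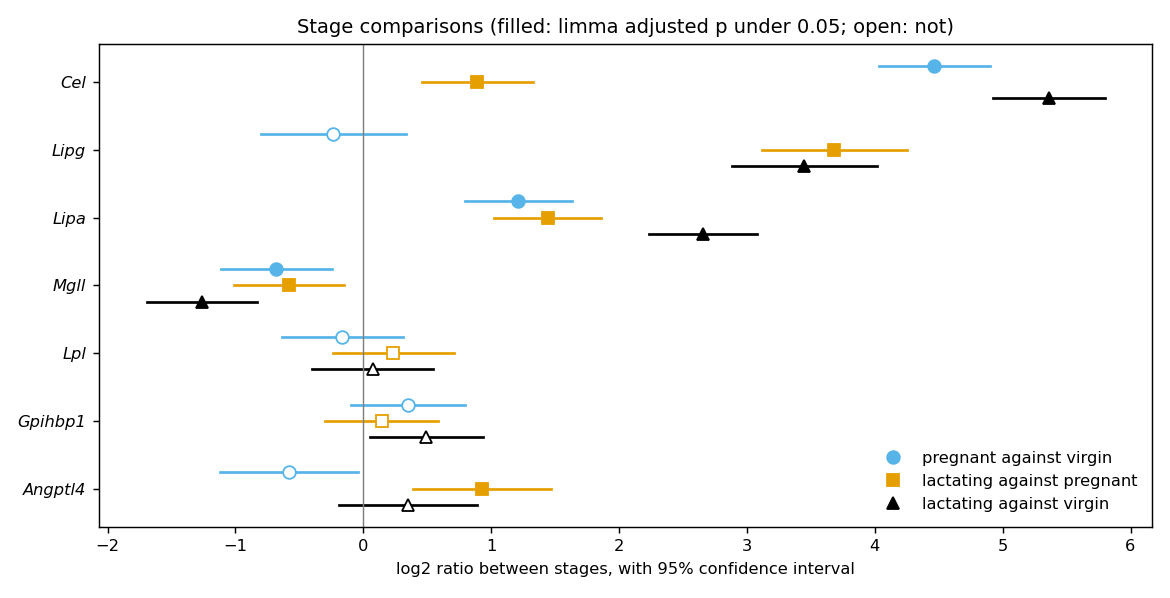
Log2 ratio between stages for each gene with its 95% confidence interval from the limma fit (2 arrays per stage). Filled points passed an adjusted p of 0.05. Cel and Lipa are above 0 in all 3 comparisons and Mgll below 0, Lipg is above 0 only in the comparisons of lactating glands, and Lpl is near 0 throughout by its brighter probe set.

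No gene of the 7, and 0% of all tested genes, differed between mutants and controls in limma at an adjusted p of 0.05, whose lowest value over all genes was 0.9382. At an unadjusted p under 0.05 there were 540 genes, or 4.7%. The comparison rests on 3 pairs, 1 per stage, and the pregnant pair carried other alleles than the other pairs. By representative probe sets the largest difference was that of Angptl4, at a mutant to control log2 ratio of -0.45 ± 0.19 (SE, n = 3 pairs; limma adjusted p = 0.9382), with a 95% interval from -0.89 to -0.01. Its ratio was 0.02 at the virgin stage, -0.68 in pregnancy and -0.69 in lactation, so 2 of 3 pairs were lower. The virgin ratio turned to -0.14 with array medians centred. With the mean of its probe sets, one of them dim, the Angptl4 ratio was -0.15 over the 3 pairs and -0.115 in lactation, smaller than those of Lipa (-0.345), Lpl (-0.32) and Mgll (-0.26) averaged the same way.

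The representative sets of the other members differed by less. Mgll gave -0.34 ± 0.15 (SE), Lipa -0.29 ± 0.15, Cel -0.19 ± 0.15 and Lpl -0.18 ± 0.17 over the 3 pairs. The second Lpl set gave -0.46 ± 0.17 and was lower in all 3 pairs (unadjusted p = 0.03078 and adjusted p = 0.976 by limma over all probe sets). Gpihbp1 gave 0.09 ± 0.16 and Lipg 0.02 ± 0.20, and the limma adjusted p of these 6 genes lay between 0.9382 and 0.988. Their 95% intervals reached from -0.69 at the lowest (Mgll) to 0.49 at the highest (Lipg), so differences of up to about those sizes were not excluded. The interval of the second Lpl set ran from -0.86 to -0.05. It leaves out 0 but makes no allowance for the number of probe sets tested, as the adjusted p does.

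Within pairs there is 1 mouse on each side, and the ratios carry no test. Cel, Lpl, Mgll and Lipa were lower in the mutant of all 3 pairs, a pattern shared by 10.7% of all tested genes. This holds for their representative sets: the third sets of Mgll and Lipa gave 0.07 and 0.05 in the virgin pair. The Cel ratio in the pregnant pair was -0.01 and turned to 0.05 under quantile normalization. In the lactating pair the log2 ratios were -0.39 for Mgll, -0.37 for Lipa, -0.31 for Cel and -0.22 for Lpl. In the virgin pair the same genes gave -0.45, -0.22, -0.25 and -0.04. None of the 21 ratios of representative sets reached 2-fold in either direction. By comparison, 1.44% of all tested genes reached 2-fold upward and 1.18% downward in the virgin mutant, 1.04% and 0.887% in the pregnant mutant, and 3.53% and 2.74% in the lactating mutant. The median ratio of the 7 was -0.04 (virgin), -0.17 (pregnant) and -0.31 (lactating), beside 0.03, 0.02 and 0.04 over all tested genes.

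**Figure D4:**
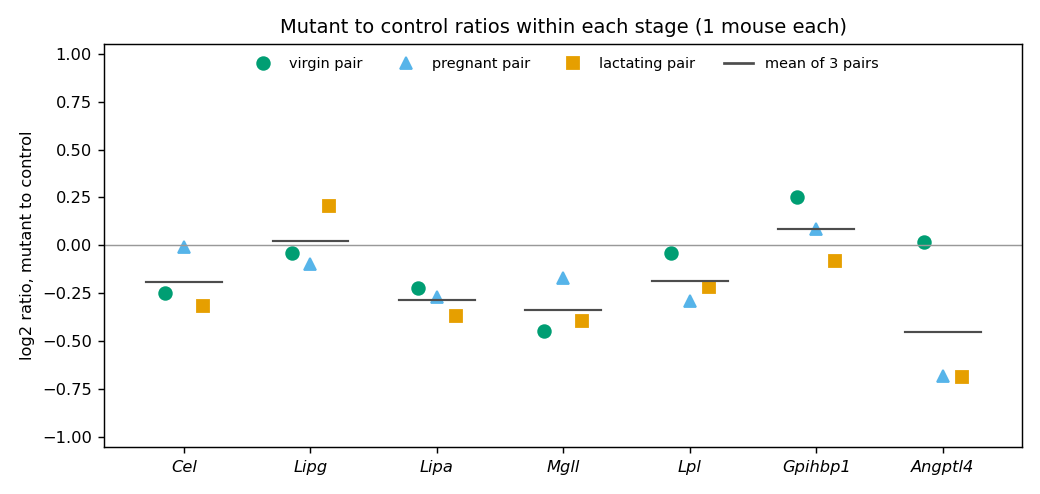
Log2 ratio of mutant to control for each gene in each of the 3 pairs (1 mouse on each side). The bar is the mean of the pairs. All 21 ratios lie within 2-fold, and Angptl4 in the pregnant (-0.68) and lactating (-0.69) pairs is the farthest from 0.

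The lists that follow are read for lactating against virgin glands against 23.7% of all genes higher and 28.3% lower, with a median of -0.10. Of 18 tested genes that mature or control Lpl, 4 were higher, 7 lower and 7 did not pass the test, with a median log2 ratio of -0.29, shares near that background. Lmf2, a relative of the lipase maturation factor Lmf1, was higher (1.92 ± 0.21, SE; signals of 603.5 and 548.2 in virgin and 2195 and 2471 in lactating glands). Apoe, an apolipoprotein by which receptors take up lipoproteins, was lower (-3.80 ± 0.23; 16085 and 21722 against 1457 and 1141). The receptors Sorl1 (-2.63 ± 0.28) and Lrp1 (-2.03 ± 0.23) were lower as well. In pregnant against virgin glands 1 of the 18 was higher and 3 were lower, and in lactating against pregnant glands 3 were higher and 4 lower.

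Among 21 other tested genes of lipolysis, 7 were higher and 6 lower in lactating than in virgin glands, with a median log2 ratio of -0.12, again near the background of 23.7% and 28.3%. The carboxylesterases Ces1d, which hydrolyses triglyceride in fat and liver, and Ces1f were lower by log2 ratios of -2.85 ± 0.22 and -4.38 ± 0.38 (SE). Pnpla8, a mitochondrial and peroxisomal phospholipase, was lower too (-2.08 ± 0.18). Liph, a phospholipase that makes lysophosphatidic acid, was higher (3.31 ± 0.31), from signals of 103.9 and 99.7 in virgin to 1153 and 1880 in lactating glands. Both virgin signals lay under the threshold of about 158.1 and near the 95th percentile of the Y-linked probe sets (97.6 and 120.4). Liph therefore passed the filter through brighter arrays, and the size of its ratio is uncertain. In pregnant against virgin glands 3 were higher and 3 lower, and in lactating against pregnant glands 4 and 4.

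Fatty acids that lipases release are taken up and activated by another group of genes. Of 15 tested, 5 were higher and 6 lower in lactating against virgin glands, with a median log2 ratio of -0.48, beside 23.7% and 28.3% of all genes. Fabp3, a fatty acid binding protein of muscle and mammary epithelium, was higher by 5.93 ± 0.40 (SE), with signals of 464.2 and 1337 in virgin and 55681 and 47690 in lactating glands. The transporter Slc27a4 (1.54 ± 0.19) and the lipoprotein receptor Scarb1 (1.63 ± 0.21) were higher, and the caveolar protein Cav1 was lower (-2.19 ± 0.25). In pregnant against virgin glands 5 were higher and 1 lower, and in lactating against pregnant glands 2 and 2.

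Peroxisome proliferator-activated receptors (PPARs) are known to regulate Lpl and Angptl4. Of 18 tested receptors, partners and other targets, 5 were higher, 4 lower and 9 not called in lactating against virgin glands, with a median log2 ratio of -0.08, beside 23.7% higher and 28.3% lower over all genes. Pparg, the receptor of fat cells, was lower (-4.02 ± 0.33, SE; signals of 5496 and 2332 in virgin and 206.2 and 143.1 in lactating glands). Both lactating signals of Pparg lay below the 95th percentile of the Y-linked probe sets there (450.3 and 282.9). The size of its ratio is therefore uncertain. The Pparg target Cidec, a lipid droplet protein of fat cells, was lower too (-2.79 ± 0.32). The coactivator Ppargc1b (2.32 ± 0.22) and the droplet coat protein Plin2 (1.64 ± 0.25) were higher. Fabp4 and Cd36 also stand in the list on fatty acid uptake, and neither passed the test. In the comparison of mutant with control, 0 genes of any of these 5 lists passed the test.

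**Figure D5:**
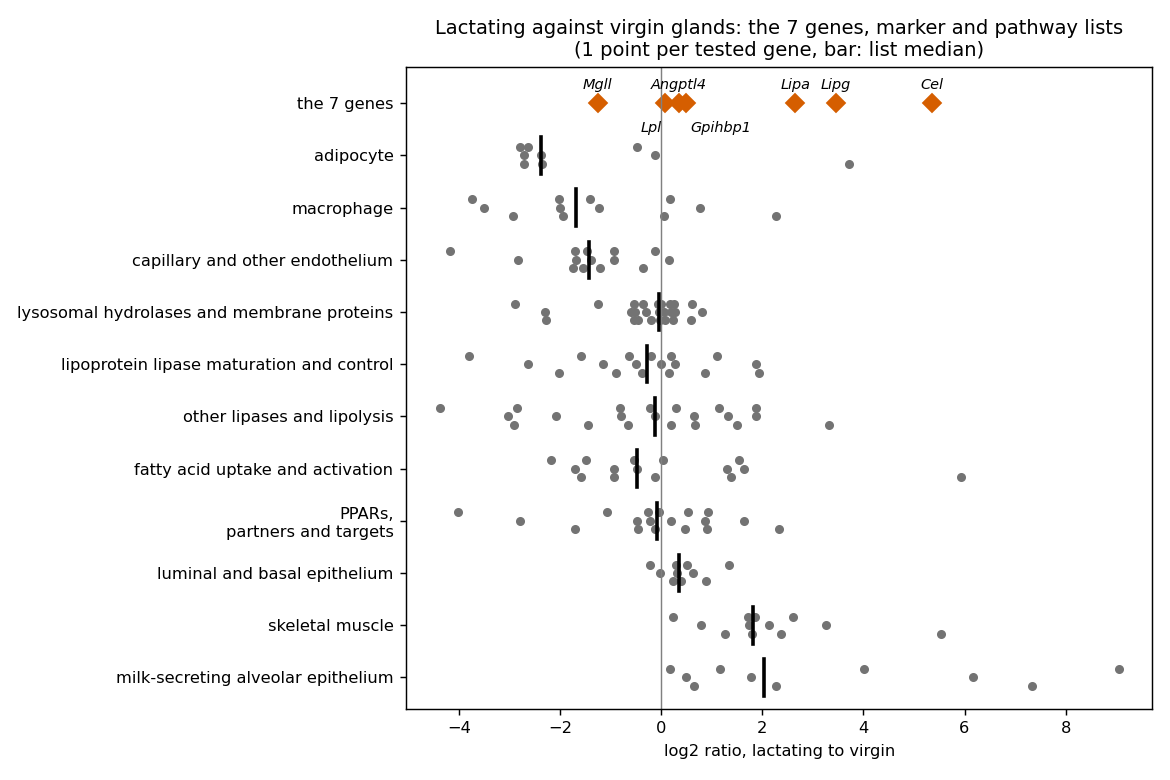
Log2 ratio of lactating to virgin glands for the 7 genes (diamonds) and for the tested genes of marker and pathway lists (grey points, 1 per gene, with a black bar at the list's median). Medians run from -2.38 (adipocyte), -1.68 (macrophage) and -1.43 (endothelium) to 1.82 (skeletal muscle) and 2.02 (milk-secreting epithelium), those of the 5 pathway lists lie between -0.48 and -0.05, and among the 7 genes Cel, Lipg and Lipa are the farthest to the right and Mgll the farthest to the left.

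The genes most like each member over the 6 arrays, by Pearson's r on the log2 scale, are given as a description, since 6 arrays of 3 stages make high values common. Cel was most like Alkbh8 (r = 0.9976), Btn1a1 (0.9966) and AI463170 (0.9962), and 251 of 11494 other genes exceeded 0.95. Lipg was most like Fzd10os (0.9993), Fbxw22 (0.9976) and Rtl6 (0.9963), with 482 genes above 0.95. Lipa was most like Scly (0.9988), Slc41a3 (0.9983) and Vdr (0.9975), with 499. Mgll was most like Gstt1 (0.9984), Ptpn11 (0.996) and Eea1 (0.9951), with 399. Gpihbp1 was most like Casq2 (0.9954), Elmo2 (0.9947) and Scn4b (0.9945), with 189. Lpl and Angptl4 had the fewest, 11 and 20. Lpl was most like Nfrkb (0.9896), Agpat3 (0.9842) and Rnf130 (0.9815), and Angptl4 most like Zcchc4 (0.9888), Nfrkb (0.9776) and Cebpd (0.9735). The points share arrays and scaling, and r takes in the differences between stages. Some of these genes were dim. On both lactating arrays Casq2 (279.7 and 240.9) and Zcchc4 (255.5 and 189.5) lay below the 95th percentile of the Y-linked probe sets. Fzd10os was below it in the lactating control (438 beside 450.3).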

How the data were processed

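The authors deposited 1 MAS5 signal intensity per probe set and array. The submitters' processing notes name MAS5 without a version. Intensities were kept at their scaling and turned into log2(signal + 52.1), the 25th percentile of all values. Of 45101 probe sets, 64 were controls, 932 carried several symbols and 9160 are unnamed here. The probe set with the highest mean stood for its gene, with sets ending in _x_at used only where no other existed. Genes whose mean fell under the probe set median were left out. Stage and genotype were fitted together in limma 3.58.1 with trended eBayes (R 4.3.3, 2 residual degrees of freedom), with Benjamini-Hochberg adjustment over 11495 genes. Deviations from the genotype means correlated within each stage (r = 0.857 virgin, 0.584 pregnant, 0.819 lactating, across genes). These deviations hold the differences between stages, so r does not test the pairing. The pairs were taken from stage in the labels.

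Members and lists were chosen with earlier results of these data known. All members are named, with up to 4 genes per pathway list by smallest p and the 3 most alike genes per member. Marker genes and members of lists beyond these were named after their values were seen. The code was tested on simulated data. Alternatives were quantile normalization, median centring, pseudocounts of 7.9 and 168.7, no filter or one at the 75th percentile, averaging each gene's probe sets, fitting every probe set, no variance trend, no stage or genotype term, leaving out arrays or pairs, and, added after seeing the data, probe sets ending in _s_at ranked last. Precision is limited by the number of arrays. matplotlib 3.10.9 drew the plots.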

Additional observations from a re-analysis of the deposited data

How the results depend on the processing

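The 12 stage calls of members kept their direction in all 202 alternatives run on them and their call in 169. Many of these settings cannot change the ratio, so in them the direction was fixed in advance. Examples are another filter, no variance trend, no genotype term, or leaving out arrays of the third stage. The count takes in the calls of Lipg in both comparisons of lactating glands, each kept in all 15 alternatives. Lipg passed the filter only through its lactating arrays, so its calls add no support to these totals. The 33 losses fell on Mgll in pregnant against virgin (10 of 18) and lactating against pregnant glands (13 of 17), Angptl4 in the latter (5 of 16), Cel in the latter (3 of 17) and Lipa in pregnant against virgin glands (2 of 18). The count of members called, Lipg included, was 3 in pregnant against virgin glands, and 1 to 3 when 1 array was left out, with 1 without the virgin or the pregnant control. In lactating against pregnant glands it was 5, and 3 under median centring, under the stricter filter and with the mean of probe sets (both of the latter left Lipg untested), and 2 to 4 when 1 array was left out, with 2 without either pregnant array and 3 without the lactating control. In lactating against virgin glands it was 4, and 3 to 5 over all alternatives.

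Values that changed sign were all uncalled in the fit reported. Lpl in lactating against virgin glands turned to -0.17 under quantile normalization, -0.52 under median centring, -0.62 with the mean of probe sets and -0.034 without the virgin control (-0.034 to 0.18 when 1 array was left out). Under median centring Gpihbp1 gave -0.10 and Angptl4 -0.24 there, and Angptl4 gave -0.002 without the virgin control (-0.002 to 0.702 when 1 array was left out). In lactating against pregnant glands Lpl gave -0.18 under median centring and -0.35 with the mean of probe sets, and Gpihbp1 gave -0.27 under median centring. For mutant against control, Lipg turned to -0.055 under quantile normalization, -0.016 under median centring and -0.067 without the lactating pair (-0.067 to 0.083 when 1 pair was left out). The causes were not tested.

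Median centring moved the median log2 ratio of all genes from -0.10 to -0.69 in lactating against virgin, from -0.04 to -0.45 in lactating against pregnant and from -0.06 to -0.24 in pregnant against virgin glands. The share of called genes that were higher fell with it, from 45.5% to 18.4%, from 47% to 16.4% and from 43.8% to 26.5%. Without the virgin control 304 genes were called in pregnant against virgin glands in place of 1690, and without the lactating arrays 2759. Without the pregnant mutant 1029 were called in lactating against pregnant glands in place of 3641, and without the virgin control 3408 in lactating against virgin glands in place of 5982. Signal over background limits Lipg in the virgin and pregnant glands.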

Other observations

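The members had 4 probe sets that stayed below the 95th percentile of the Y-linked probe sets on all 6 arrays. The second Lipg set read 35.3 to 156.9 and the third 8.2 to 21.7. The dim sets of Mgll and Angptl4 read 9.1 to 86.7 and 40 to 74.4.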
